A study of Mus musculus with 12 samples.

Results

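Matrix metalloproteinases (MMPs) and their tissue inhibitors (TIMPs) were examined in the bone of newborn mice with reduced Mediator or Runx2 function. The set held 10 of the 23715 genes in the data, namely 7 metalloproteinases (*Mmp2*, *Mmp9*, *Mmp11*, *Mmp13*, *Mmp14*, *Mmp16* and *Mmp23*) and 3 inhibitors (*Timp1*, *Timp2* and *Timp3*). They were selected by name, with the levels in both mutant groups and their controls already known, so that the differences between mutant and control mice below describe the set and do not test it. Each of the 10 reached 1 FPKM in at least 3 mice and was among the 13059 genes tested. FPKM counts the sequenced fragments of a transcript relative to its length and to the size of the library, so that levels can be compared between genes.

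RNA had been sequenced from 12 C57BL/6 mice, 3 in each of 4 groups. Mice labelled P-KO lacked *Med23*, a subunit of the Mediator complex that links transcription factors to RNA polymerase II, in mesenchymal stem cells. The deletion was made with a floxed *Med23* allele and a Cre driven by the *Prx1* promoter, which is active in limb and part of the craniofacial mesenchyme, so that osteoclasts, blood cells and other cells of the tissue keep the gene. P-Ctrl were the control littermates, whose genotype is labelled WT and which the study elsewhere defines as *Med23* fl/fl. Mice labelled R-Het carried 1 disrupted copy of *Runx2*, the master transcription factor of osteoblasts, in all cells, and R-WT were wild-type mice. The labels give the tissue as calvaria of newborns, whereas the methods name the parietal bone of mice at postnatal day 2. The replicates were separate mice. Bulk tissue was sequenced, so fewer cells of a type and less RNA per cell cannot be told apart.

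MMPs are zinc-dependent proteases that cut collagens and other components of the extracellular matrix. They are made as inactive proenzymes, are switched on by removal of a prodomain, and are blocked by TIMPs, which bind the active site in a complex of 1 inhibitor with 1 enzyme. In bone, MMP13 (collagenase-3) is made by osteoblasts and late hypertrophic chondrocytes and cleaves fibrillar collagen, MMP9 (gelatinase B) is abundant in osteoclasts, and the membrane-anchored MMP14 cleaves collagen and, with TIMP2 as an adaptor, activates MMP2. The *Mmp13* promoter is a textbook target of RUNX2, which acts there together with AP-1 factors of the Fos and Jun families.

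The bases just upstream of *Mmp13* are shown because this gene differed most between the groups, with those of *Timp1*, the inhibitor that differed in both mutants, and of *Mmp14*, which carries the same RUNX letters and hardly differed. Each run is the 250 bases before the RefSeq start, 5′ to 3′ on the gene's strand, in GRCm38.p6. Capitals mark TGTGGT (the RUNX core, or ACCACA where it lies on the other strand) and TGANTCA (the AP-1 site).
*Mmp13*, chr9:7272264-7272513, plus strand: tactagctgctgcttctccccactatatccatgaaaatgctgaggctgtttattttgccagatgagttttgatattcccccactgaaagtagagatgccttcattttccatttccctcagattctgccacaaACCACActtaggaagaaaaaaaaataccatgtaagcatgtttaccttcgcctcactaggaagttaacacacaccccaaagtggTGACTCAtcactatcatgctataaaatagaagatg
*Timp1*, chrX:20869916-20870165, plus strand: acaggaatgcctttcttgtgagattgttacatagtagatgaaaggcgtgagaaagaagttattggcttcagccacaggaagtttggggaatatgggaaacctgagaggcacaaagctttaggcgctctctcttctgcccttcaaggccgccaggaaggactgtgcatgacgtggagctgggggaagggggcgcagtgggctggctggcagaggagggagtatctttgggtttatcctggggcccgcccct
*Mmp14*, chr14:54431348-54431597, plus strand: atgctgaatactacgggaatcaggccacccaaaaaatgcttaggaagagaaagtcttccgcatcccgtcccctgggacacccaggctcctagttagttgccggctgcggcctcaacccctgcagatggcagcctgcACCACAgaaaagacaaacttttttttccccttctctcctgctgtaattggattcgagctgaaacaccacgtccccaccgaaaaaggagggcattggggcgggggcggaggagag
In *Mmp13*, the RUNX core lay from -118 to -113 and the AP-1 site from -35 to -29, counted back from the start, and the sites did not overlap. In *Mmp14* the RUNX core lay from -114 to -109 with no AP-1 match, and the *Timp1* window held neither. Both strands of all 32851 promoters in the table were searched in the same way. Of these, 14.0% held the RUNX core, 6.75% the AP-1 site and 1.01% both. Of the other members, *Mmp23* had a RUNX core from -177 to -172 in 1 of its windows, and that window and the one of *Mmp11* held TGCGGT, a variant of the core found in 5.10% of promoters. *Timp2* and *Timp3* had no match, and *Mmp2*, *Mmp9* and *Mmp16* were not in the table. A match describes letters, not binding, and the part of these sites in the levels below was not tested.

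The tissue carried the RNA of bone. The summed level of 7 osteoblast markers was between 29569 and 35629 FPKM in the control mice, and between 15564 and 25386 FPKM in the mutants. Most of these sums came from *Spp1*, *Bglap* and *Col1a1*. In R-Het the markers went both ways, with log2 fold changes from -0.81 to 0.18 and a median of -0.04. The targeted genes did not check the labels. *Med23* was at 4.54 to 5.99 FPKM in P-Ctrl and at 4.89 to 5.74 FPKM in libraries labelled P-KO, where the floxed exons are only a part of the transcript that is counted. *Runx2* was at 27.3 to 37.7 FPKM in R-WT and at 30.4 to 35.7 FPKM in libraries labelled R-Het. Every direction below therefore rests on the labels. *Xist*, which is transcribed in females only, was at 37.8 to 49.1 FPKM in 3 control mice (P-Ctrl 2 and 3 and R-WT 1) and at 0.07 FPKM or less in the other 9, so that all mutant libraries were without it. Skeletal muscle markers summed to 594 to 4147 FPKM in P-KO and 20.6 to 1373 FPKM in P-Ctrl. In R-Het they summed to 25.2 to 186 FPKM, against 1899 to 5602 FPKM in R-WT. The median of their log2 fold changes was 3.09 in P-KO and -4.86 in R-Het. At an adjusted p under 0.05 (limma across all genes), 8 of 8 were lower in R-Het and 0 of 8 differed in P-KO. The part of muscle in the levels below was not tested.

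The question was how the matrix-degrading enzymes and their inhibitors stood in each mutant. In normal calvaria, *Mmp13* had the highest level of the 10 genes. It lies at chr9:7272514-7283333 on GRCm38. The P-Ctrl mice had 1599, 1063 and 1656 FPKM of *Mmp13* and the R-WT mice 1777, 1283 and 1585 FPKM. Its lowest control value thus exceeded the highest value of each of the other 9 members. *Timp1* was next, at 663 ± 153 FPKM (mean ± SD, n = 3) in P-Ctrl and 642 ± 72.9 FPKM in R-WT, and its range overlapped that of *Mmp9*, at 586 ± 220 and 551 ± 72.8 FPKM. *Mmp2* (gelatinase A, 352 ± 40.7 and 283 ± 40.4 FPKM) came before *Mmp14* (246 ± 35.0 and 225 ± 27.2 FPKM) and *Timp2* (240 ± 21.3 and 235 ± 27.9 FPKM). The last pair did not differ beyond its spread in either control group, and *Mmp2* stood apart from both in P-Ctrl only. *Timp3*, an inhibitor bound to the matrix, followed at 108 ± 14.4 and 110 ± 9.13 FPKM. The low members were *Mmp23* (66.1 ± 14.9 and 58.7 ± 7.09 FPKM), the membrane-type *Mmp16* (15.8 ± 0.406 and 16.3 ± 1.32 FPKM) and *Mmp11*, stromelysin-3 (10.3 ± 1.09 and 9.16 ± 0.258 FPKM). Their ranges followed each other without overlap in both control groups.

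**Figure D1:**
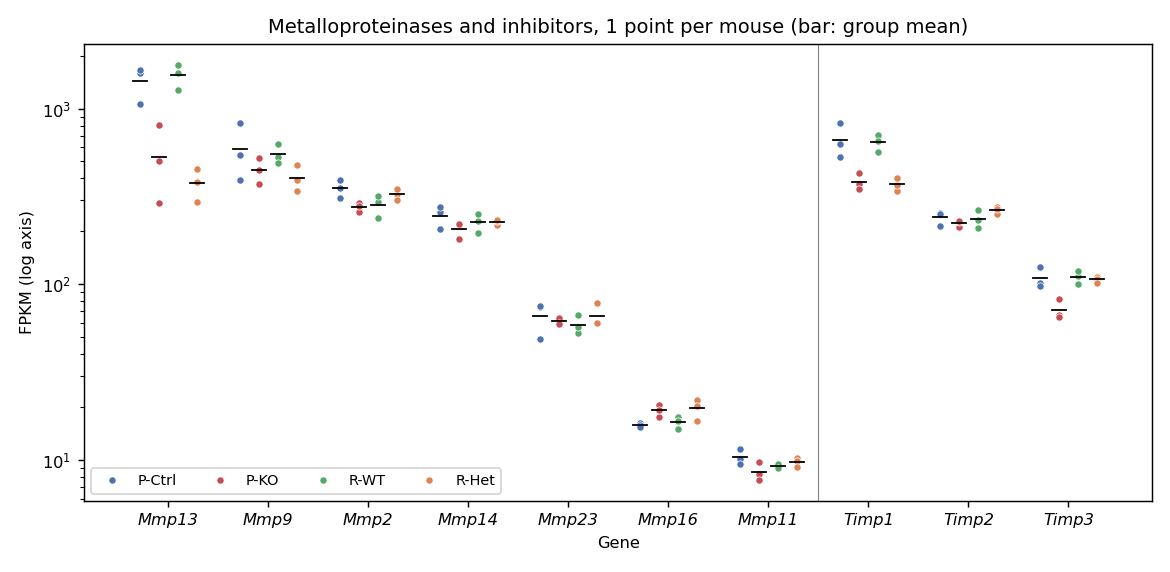
Level of each gene in FPKM on a log axis, with 1 point per mouse and a bar at the group mean. *Mmp13* and *Timp1* sit lower in each P-KO and R-Het mouse than in each of their controls, and *Timp3* and *Mmp2* sit lower in each P-KO mouse than in each P-Ctrl mouse.

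The control groups of both crosses offer a contrast on which the genes were not selected. 0 of the 10 members differed between P-Ctrl and R-WT at an adjusted p under 0.05 (limma across all genes, Benjamini-Hochberg adjustment), and 0 had an unadjusted p under 0.05. Across all genes tested, 0.0383% and 9.43% did. The largest difference was that of *Mmp2*, which was higher in P-Ctrl by 0.31 on the log2 scale (SE 0.14, adjusted p = 0.528). For *Mmp13* the difference was -0.12, with a 95% interval from -0.58 to 0.34, and for *Timp1* it was 0.03, from -0.37 to 0.42. Cross, litter and library handling cannot be told apart in this contrast, and the intervals leave room for differences of up to a log2 value of 0.63.

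*Mmp13* was lower in both mutants. The mice labelled P-KO had 809, 501 and 288 FPKM against 1599, 1063 and 1656 FPKM in their littermates, and no P-KO value reached a control value. The mean was 533 ± 261 against 1440 ± 327 FPKM, a 2.70-fold lower level, and the log2 fold change was -1.53 (SE 0.36, adjusted p = 0.0811). The mice labelled R-Het had 453, 295 and 383 FPKM against 1777, 1283 and 1585 FPKM in R-WT. Here the mean was 377 ± 79.0 against 1548 ± 249 FPKM, 4.11-fold lower, with a log2 fold change of -2.04 (SE 0.18, adjusted p = 0.00540). The P-KO mice spread more widely than the R-Het mice. Leaving out P-KO 3, the lowest, gave -1.15, and leaving out P-KO 1 gave -1.89. In R-Het, leaving out each of the 6 mice in turn gave -2.19 to -1.88, and each of these fits had an adjusted p under 0.05. The change did not differ detectably between the sets, with a difference of 0.52 on the log2 scale and a 95% interval from -0.46 to 1.49.

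*Timp1*, a secreted inhibitor of most MMPs, was lower by nearly the same amount in both mutants. It lies on the X chromosome, at chrX:20870166-20874737. The P-Ctrl mice had 832, 533 and 624 FPKM and the P-KO mice 427, 372 and 348 FPKM. R-WT mice had 711, 566 and 651 FPKM and R-Het mice 341, 368 and 404 FPKM. The mutant and control values did not overlap in either set, and the means were 1.74-fold lower in P-KO and 1.73-fold lower in R-Het. The log2 fold changes were -0.77 (SE 0.17, adjusted p = 0.0715) and -0.79 (SE 0.12, adjusted p = 0.0213), with a difference between the sets of 0.01 (95% interval -0.46 to 0.49). The R-Het value passed the threshold, but not in 4 of the 6 fits without 1 mouse. Without R-WT 1 it was -0.71 (adjusted p = 0.0958), without R-WT 3 -0.78 (0.0722), without R-Het 1 -0.73 (0.0793) and without R-Het 2 -0.78 (0.0628). With the libraries free of *Xist* alone, the fold change was -1.13 in P-KO, where 1 control mouse remained and was taken to vary like the others, and -0.71 in R-Het.

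*Timp1* is listed as 2 RefSeq transcripts, and the other members as 1 each. The second transcript gave 35.3 ± 0.496% of the *Timp1* level in P-Ctrl, 35.4 ± 4.76% in P-KO, 34.5 ± 1.09% in R-WT and 40.5 ± 5.49% in R-Het. The ranges overlapped in both sets, so the lower level was not that of 1 transcript alone. *Timp1* lies within *Syn1*, a neuronal gene on the opposite strand, and strand was not stated to be used in counting. *Syn1* was at 0.43 to 0.87 FPKM in the 12 mice, far below *Timp1*.

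*Timp3* stood below its controls in P-KO, whereas in R-Het it overlapped them. It lies at chr10:86300412-86349505, inside *Syn3* on the opposite strand, which was at 0.11 to 0.25 FPKM in the 12 mice. The P-Ctrl mice had 125, 102 and 97.7 FPKM and the P-KO mice 66.9, 64.6 and 82.0 FPKM, which do not overlap. R-WT had 111, 119 and 101 FPKM and R-Het 110, 107 and 102 FPKM, which do. The log2 fold change was -0.60 (SE 0.13, adjusted p = 0.0714) in P-KO and -0.05 (SE 0.09, adjusted p = 0.863) in R-Het. The difference between these changes was -0.55 (95% interval -0.90 to -0.20), with an adjusted p of 0.139 in limma. *Timp2* did not pass in either set, with 210 to 228 FPKM in P-KO, 251 to 275 FPKM in R-Het and log2 fold changes of -0.11 and 0.18.

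The gelatinases differed less. *Mmp2* was at 392, 352 and 311 FPKM in P-Ctrl and at 257, 290 and 277 FPKM in P-KO, with no overlap and a log2 fold change of -0.35 (SE 0.11, adjusted p = 0.130). In R-Het it was at 324, 303 and 347 FPKM against 292, 319 and 239 FPKM in R-WT, a log2 fold change of 0.20 with overlapping values. The changes in the 2 sets were thus of opposite sign, and their difference was -0.55 (95% interval -0.92 to -0.19, adjusted p = 0.143). *Mmp9* was at 391, 337 and 479 FPKM in R-Het against 529, 632 and 492 FPKM in R-WT, with no overlap and a log2 fold change of -0.46 (SE 0.15, adjusted p = 0.196). In the other set it was at 371, 520 and 447 FPKM in P-KO against 824, 544 and 390 FPKM in P-Ctrl. Those values overlapped, and the log2 fold change of -0.34 became -0.06 without P-Ctrl 1.

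The membrane-type enzymes and the remaining members were close to their controls. *Mmp14* had log2 fold changes of -0.25 in P-KO and 0.02 in R-Het, the latter with a 95% interval from -0.23 to 0.26. *Mmp16* was the only member with higher values in each P-KO mouse (17.5, 20.5 and 19.1 FPKM) than in each P-Ctrl mouse (16.2, 15.8 and 15.4 FPKM), with a log2 fold change of 0.25 (adjusted p = 0.165). Its log2 fold change in R-Het was 0.24, and there the values of 21.8, 20.2 and 16.7 FPKM overlapped those of R-WT. *Mmp11* (-0.25 and 0.08) and *Mmp23* (-0.08 and 0.15) overlapped their controls in both sets. *Mmp11* rests on the fewest fragments, roughly 150 to 290 per mouse, against 6900 to 55000 for *Mmp13*.

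**Figure D2:**
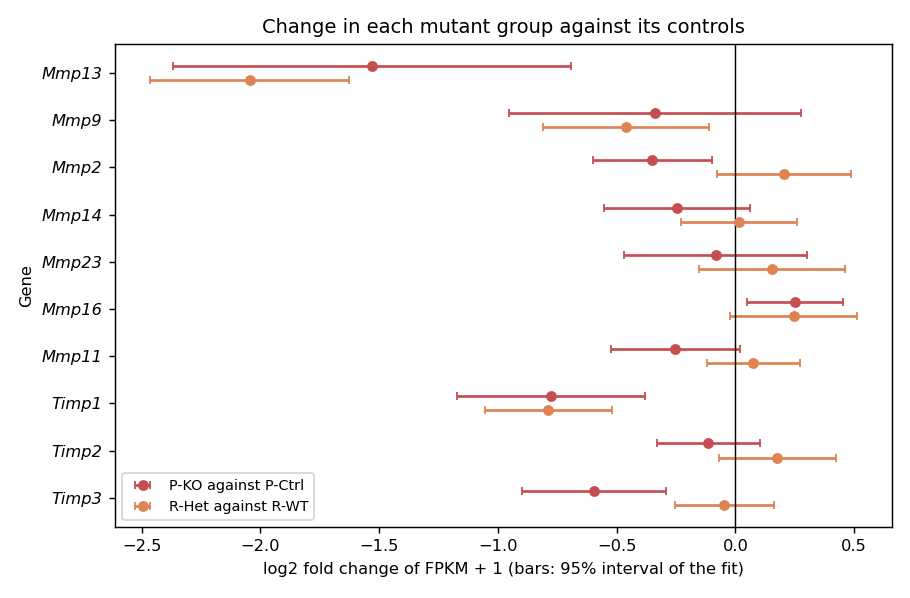
Log2 fold change of FPKM + 1 for each gene in P-KO against P-Ctrl and in R-Het against R-WT, with the 95% interval of the limma fit. *Mmp13* and *Timp1* lie left of 0 in both, at -1.53 and -2.04 and at -0.77 and -0.79, and the intervals of *Timp3* and *Mmp2* lie left of 0 in P-KO and include 0 in R-Het.

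Counted over the set, 0 of 10 members passed an adjusted p under 0.05 in P-KO by limma, and 1.57% of all genes tested did. At an unadjusted p under 0.05 there were 5 members, and 21.3% of all genes. Of the 10, 4 were lower without overlap (*Mmp2*, *Mmp13*, *Timp1* and *Timp3*), where 7.68% of all genes were, and 1 was higher without overlap, where 19.6% of all genes were. In R-Het 2 members passed (*Mmp13* and *Timp1*), beside 1.89% of all genes, and 3 had an unadjusted p under 0.05, beside 15.4% of all genes. There, 3 members were lower without overlap (*Mmp9*, *Mmp13* and *Timp1*), where 10.4% of all genes were, and 0 were higher, where 10.7% of all genes were. *Mmp13* and *Timp1* were lower without overlap in both sets, as were 1.7% of all genes. The difference between the sets passed for 0 members in limma and for 0.153% of all genes. At an unadjusted p under 0.05 there were 3 members (*Mmp2*, *Mmp11* and *Timp3*) and 15.3% of all genes. The median log2 fold change of the members was -0.30 in P-KO, beside 0.06 for all genes, and 0.05 in R-Het, beside 0.02. Since the members were selected with these values known, nothing follows from their shares.

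*Mmp13* was the largest part of the enzyme pool in the controls. It gave 52.8 ± 8.50% of the summed FPKM of the 7 metalloproteinases in P-Ctrl, 33.4 ± 12.9% in P-KO, 57.4 ± 6.55% in R-WT and 26.3 ± 3.87% in R-Het. The R-Het and R-WT shares were separate, and the P-KO shares overlapped those of P-Ctrl through P-KO 1, at 47.3%. The metalloproteinases summed to 2716 ± 410 FPKM in P-Ctrl and 1548 ± 202 FPKM in P-KO, and to 2692 ± 186 FPKM in R-WT and 1425 ± 135 FPKM in R-Het. Without *Mmp13* the sums were 1276 ± 271, 1016 ± 109, 1144 ± 144 and 1048 ± 85.1 FPKM in the same order. The 6 other enzymes together thus overlapped between mutants and controls in both sets.

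The summed level of the inhibitors was lower in both mutants, in R-Het through *Timp1* alone, since *Timp2* was at 265 ± 12.5 FPKM against 235 ± 27.9 FPKM and *Timp3* overlapped its controls. The 3 inhibitors summed to 1011 ± 173 FPKM in P-Ctrl, 675 ± 25.5 FPKM in P-KO, 988 ± 57.6 FPKM in R-WT and 743 ± 36.7 FPKM in R-Het. The ratio of enzyme to inhibitor transcripts was 2.69 ± 0.130 in P-Ctrl and 2.29 ± 0.244 in P-KO, and 2.72 ± 0.0298 in R-WT and 1.92 ± 0.209 in R-Het. Each mutant ratio lay below each ratio of its controls. With *Mmp13* left out, the ratio was 1.26 ± 0.179, 1.51 ± 0.209, 1.16 ± 0.175 and 1.41 ± 0.0967, higher on average in the mutants and overlapping in both sets. *Mmp13* stood to *Timp1* as 2.19 ± 0.403 in P-Ctrl, 1.36 ± 0.532 in P-KO, 2.40 ± 0.12 in R-WT and 1.03 ± 0.272 in R-Het. *Mmp14* stood to *Timp2*, its partner in the activation of MMP2, as 1.02 ± 0.0633, 0.931 ± 0.0587, 0.955 ± 0.0266 and 0.854 ± 0.0182. These are ratios of transcripts, not of active protein.

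**Figure D3:**
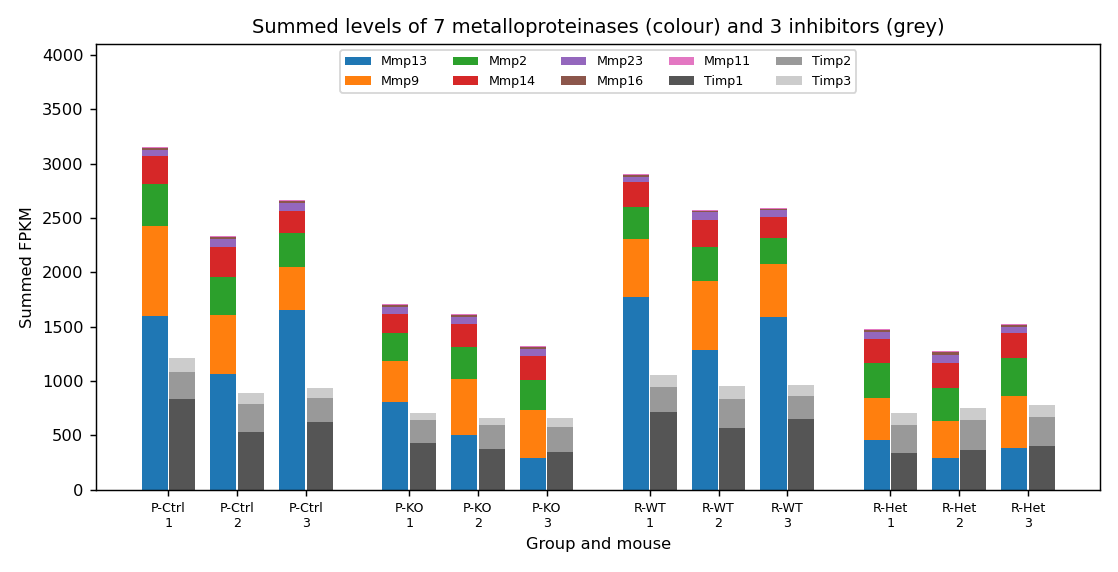
Summed FPKM of the 7 metalloproteinases (coloured stack) and the 3 inhibitors (grey stack) in each of the 12 mice. The enzyme stacks reach 1273 to 1708 FPKM in the mutants and 2334 to 3149 FPKM in the controls, and most of the gap is the *Mmp13* segment.

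Cell type markers moved beside these genes. For the osteoclast, 7 of 7 markers were found and none was at 0. They summed to 3031 to 3721 FPKM in R-Het and 4537 to 5967 FPKM in R-WT, with 3 of 7 lower at an adjusted p under 0.05 and a median log2 fold change of -0.76. By limma, 7 of 7 markers had an unadjusted p under 0.05 in R-Het, with log2 fold changes from -1.03 to -0.55. In P-KO they summed to 3718 to 4766 FPKM, against 4017 to 7333 FPKM in P-Ctrl, with a median of -0.45 and, by limma, 0 of 7 passing and 0 at an unadjusted p under 0.05. P-Ctrl 1 had the highest osteoclast sum and also the highest *Mmp9* and *Timp1*. Over the osteoblast markers the median was -0.53 in P-KO, with 1 of 7 passing in limma and 6 at an unadjusted p under 0.05. It was -0.04 in R-Het, with 0 of 7 passing and 2 at an unadjusted p under 0.05. Beside the marker counts here and below, 21.3% of all genes in P-KO and 15.4% in R-Het had an unadjusted p under 0.05. The shares that passed were 1.57% and 1.89%. 

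The 7 cartilage markers summed to 21.0 to 31.9 FPKM in P-KO and 30.2 to 49.6 FPKM in P-Ctrl, and to 29.2 to 69.3 FPKM in R-Het and 19.1 to 32.4 FPKM in R-WT. The 5 tested went both ways in P-KO, with log2 fold changes from -1.32 to 0.50 and a median of -0.76. By limma, 1 passed there and 3 had an unadjusted p under 0.05. *Col2a1*, *Matn1* and *Col9a1* were lower on average in P-KO. *Acan* (10.2 against 6.74 FPKM) and *Sox9* (1.82 against 1.44 FPKM) were higher. The median was 0.53 in R-Het, where by limma 0 passed and 1 had an unadjusted p under 0.05. *Col10a1*, which defines the hypertrophic chondrocytes that also make MMP13, was too low to be tested. It was at 0.14 to 0.27 FPKM in P-KO against 0.43 to 1.87 FPKM in P-Ctrl, and at 0.08 to 0.32 FPKM in R-Het against 0.53 to 0.85 FPKM in R-WT. It was thus lower in each mutant than in each of its controls, as were 1.7% of all genes tested. *Ihh*, another cartilage marker too low to be tested, overlapped its controls in both sets. The 5 tested cartilage markers had positive log2 fold changes in R-Het, from 0.12 to 0.95. The part of these chondrocytes in the level of *Mmp13* was not tested.

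Neutrophils store MMP9. Their 7 markers summed to 65.7 to 289 FPKM in P-KO and 165 to 618 FPKM in P-Ctrl, and to 69.8 to 372 FPKM in R-Het and 290 to 455 FPKM in R-WT. Of the 4 tested, 0 passed in limma in either set, with 0 at an unadjusted p under 0.05 in P-KO (median log2 fold change -0.68) and 4 in R-Het (median -1.47). *Camp*, a gene of their granules, was at 6.10 ± 6.36 FPKM in R-Het and 17.5 ± 9.46 FPKM in R-WT, and *Elane*, *Mpo* and *Ltf* were at 1.22 FPKM or less in the 12 mice. The 5 erythroid markers summed to 3590 to 5740 FPKM in P-KO and 6312 to 9065 FPKM in P-Ctrl, and to 2026 to 7977 FPKM in R-Het and 7629 to 9271 FPKM in R-WT. By limma, 0 of 5 passed in either set, with 2 at an unadjusted p under 0.05 in P-KO (median -0.43) and 5 in R-Het (median -1.08). The part of these cells in the levels of *Mmp9*, *Mmp13* and *Timp1* was not tested.

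The 10 genes most like *Mmp13* over the 12 mice, by Pearson's r of log2(FPKM + 1), included 1 member, *Timp1*, at the ninth place. They were *Rnd1* (r = 0.97), *Stxbp2* (0.95), *Emb* (0.94), *Lcp1* (0.94), *Ctsz* (0.94), *Slc27a1* (0.93), *Rln1* (0.93), *Calcr* (0.93), *Timp1* (0.93) and *Lyn* (0.93). *Calcr* encodes the calcitonin receptor of osteoclasts, *Lcp1* (L-plastin) and the kinase *Lyn* are typical of blood cells, and *Ctsz* encodes a lysosomal cysteine protease. The remaining genes are not assigned to a cell type here, and which cells carried these levels was not tested. The mice share their genotype groups and their libraries, so r was also taken over deviations from the group means. In the order of the 10 genes above, r was then 0.84, 0.72, 0.87, 0.78, 0.73, 0.76, 0.55, 0.83, 0.58 and 0.78. Among the other members, r over the 12 mice was 0.51 for *Mmp9*, 0.35 for *Timp3*, 0.04 for *Mmp2*, 0.07 for *Mmp14* and -0.74 for *Mmp16*. Over deviations from the group means it was -0.14, -0.39, -0.18, -0.64 and -0.13 in the same order, so that the sign turned for each of the first 4. For *Mmp11*, *Mmp23* and *Timp2*, r was 0.06, -0.22 and -0.36 over the 12 mice. Over the deviations it was -0.62, -0.27 and -0.54.

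The rest of the family was at low levels. Of the 16 further family members in the data, 15 metalloproteinases and *Timp4*, 11 were too low to be tested. *Timp4* reached 0.585 FPKM at most, *Mmp3* (stromelysin-1) 1.58 FPKM and *Mmp21* was listed at 0 in all 12 mice. The 5 tested genes were *Mmp8*, *Mmp15*, *Mmp17*, *Mmp19* and *Mmp28*, and *Mmp19* had the highest level, at 3.82 to 8.66 FPKM, near that of *Mmp11*. By limma, 0 of 5 passed in P-KO and 0 of 5 in R-Het, with 0 at an unadjusted p under 0.05 in each. *Mmp8*, the neutrophil collagenase, was at 0.147 to 1.55 FPKM, so *Mmp13* carried almost all transcripts of secreted collagenases.

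Of 12 tested genes that activate, clear or restrain MMPs, 1 fell and 1 rose in R-Het, and 0 passed in P-KO by limma. At an unadjusted p under 0.05 there were 3 in P-KO and 4 in R-Het, beside 21.3% and 15.4% of all genes. *Plau*, the urokinase that turns plasminogen into plasmin, a protease able to activate proMMPs, fell in R-Het from 16.9, 16.0 and 11.6 FPKM to 8.09, 8.03 and 6.58 FPKM. Its log2 fold change was -0.87 (SE 0.15, adjusted p = 0.0336), beside -0.66 (adjusted p = 0.228) in P-KO. *Pcsk5*, a proprotein convertase, rose in R-Het from 8.96, 10.6 and 8.25 FPKM to 15.2, 13.0 and 14.9 FPKM (log2 fold change 0.59, SE 0.11, adjusted p = 0.0470), beside 0.14 (adjusted p = 0.356) in P-KO. *Reck*, a membrane-anchored inhibitor of MMPs, was picked out after its values had been seen. It was at 30.9, 31.0 and 33.0 FPKM in R-Het against 20.5, 24.2 and 17.2 FPKM in R-WT (log2 fold change 0.60, adjusted p = 0.0552), and at 22.2, 21.6 and 23.2 FPKM in P-KO against 18.2, 21.3 and 17.5 FPKM in P-Ctrl (0.23, adjusted p = 0.230). Of the related ADAM and ADAMTS proteases, 0 of 14 passed in either set by limma. At an unadjusted p under 0.05 there were 2 in P-KO and 3 in R-Het, beside the same shares of all genes.

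Of the transcription factors known for the *Mmp13* promoter, 1 of 10 passed in P-KO and 0 of 10 in R-Het by limma. At an unadjusted p under 0.05 there were 4 in P-KO and 3 in R-Het, beside 21.3% and 15.4% of all genes. *Junb*, an AP-1 subunit, fell in P-KO from 32.2, 31.4 and 28.4 FPKM to 16.6, 17.6 and 16.3 FPKM (log2 fold change -0.83, SE 0.08, adjusted p = 0.0211). In R-Het it was at 15.9, 8.99 and 17.4 FPKM against 20.7, 22.7 and 26.2 FPKM, with a log2 fold change of -0.72 and an adjusted p of 0.166. *Runx2* itself had a log2 fold change of -0.40 (adjusted p = 0.127) in P-KO and of 0.09 (adjusted p = 0.796) in R-Het. The mean level of *Runx2* was 33.5 ± 2.76 FPKM in the libraries labelled R-Het and 31.6 ± 5.39 FPKM in R-WT. Whether the disrupted copy still gives transcript that is counted was not tested, so this level does not measure working RUNX2.

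The collagens that these enzymes cut had negative log2 fold changes in P-KO, 6 of 6, as did 38.7% of all genes. The median of the collagens was -0.52, where the median of all genes was 0.06. By limma, 5 of 6 had an unadjusted p under 0.05, beside 21.3% of all genes. Without overlap, 4 were lower, beside 7.68% of all genes. *Col2a1*, the collagen of cartilage, passed, falling from 15.2, 12.2 and 11.8 FPKM to 7.17, 5.59 and 7.56 FPKM (log2 fold change -0.86, SE 0.14, adjusted p = 0.0404). *Col1a1*, the main collagen of bone, did not, with 4267, 5351 and 3669 FPKM against 5692, 9193 and 6876 FPKM. In R-Het, 1 of 6 collagens had a negative value, as did 43.9% of all genes, and 5 had positive values. The median of the collagens was 0.16, and by limma 0 passed and 0 had an unadjusted p under 0.05. Over all 47 further genes tested, 2 fell and 0 rose in P-KO, and 1 fell and 1 rose in R-Het, beside the 1.57% and 1.89% of all genes that passed. These calls rested on all 6 mice of a set. With 1 mouse left out, *Junb* passed without P-Ctrl 1 alone (adjusted p 0.0445 to 0.0922 over the 6 fits) and *Col2a1* in none of the 6 fits (0.0722 to 0.133). *Plau* passed without R-WT 3 alone (0.0212 to 0.130) and *Pcsk5* without R-WT 2 alone (0.0458 to 0.181).

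**Figure D4:**
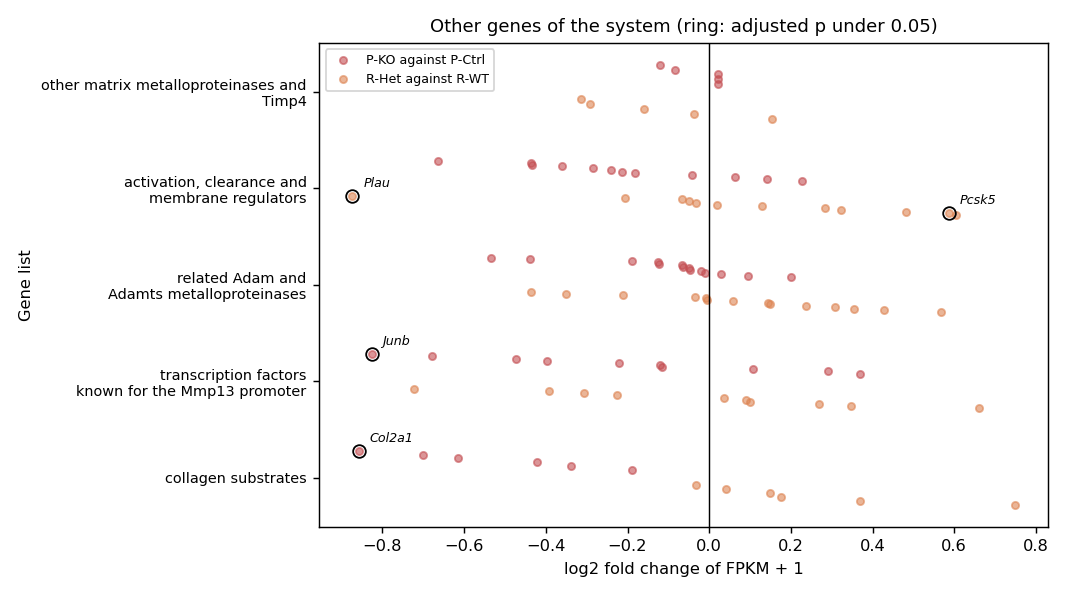
Log2 fold change of each tested gene in the 5 lists, 1 point per gene and comparison, with a ring around the genes whose adjusted p was under 0.05. The ringed genes are *Junb* and *Col2a1* in P-KO and *Plau* and *Pcsk5* in R-Het, and the 6 collagens lie left of 0 in P-KO.

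The values of the members held up unevenly when the values were scaled, filtered or fitted in another way. *Mmp13* passed in R-Het in 12 of 13 alternatives, the exception being the fit with no filter on low values, where its adjusted p was 0.0763. *Timp1* passed in R-Het in 6 of 13. Only R-WT 1 had *Xist* in the *Runx2* set, so the fit of *Xist*-free libraries repeats the fit without R-WT 1 in these R-Het counts. In P-KO, *Timp1* passed in 3 of 13, and *Mmp13* and *Timp3* in 1 of 13, which was the fit of all 12 mice together. That fit gave them adjusted p values of 0.0243 and 0.0175. None of these alternatives turned the sign of *Mmp13* or *Timp1* in either set. Fits that left out mice could not turn it, since mutant and control values did not overlap, so no conclusion is drawn from this.

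**Figure D5:**
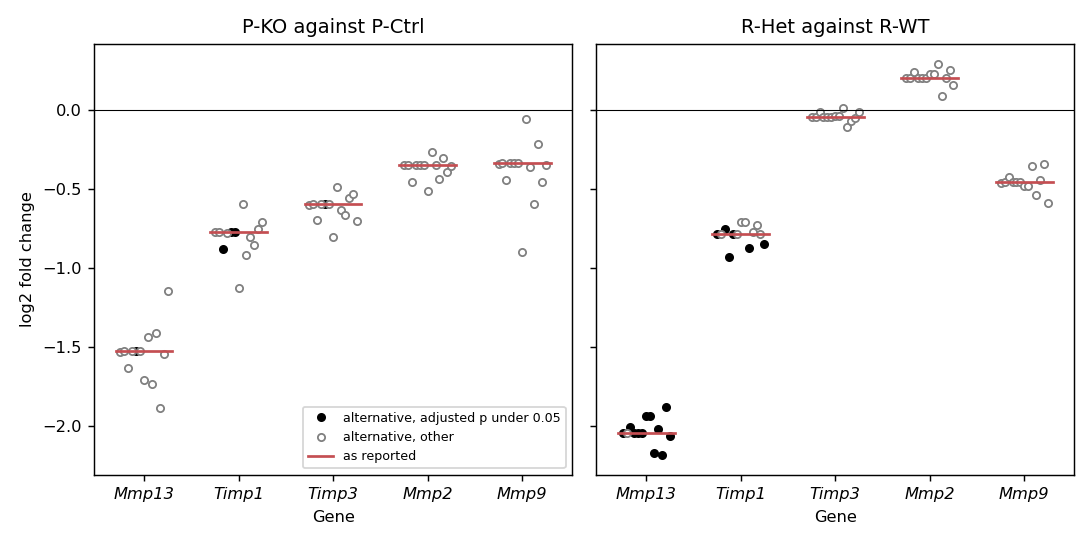
Log2 fold change of 5 genes under each of 13 alternatives (points, filled where the adjusted p was under 0.05) and as reported (line), by comparison. *Mmp13* in R-Het stays between -2.19 and -1.88, whereas *Mmp9* in P-KO moves from -0.90 to -0.06.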

How the data were processed

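RNA-seq libraries of calvaria from 12 mice were used. The authors deposited 1 FPKM value per RefSeq transcript and mouse. The unit was inferred from the values, and FPKM cannot be told from RPKM by them. Per the submitters' processing notes, Bowtie 0.12.8 and mm10 were used. The program that gave the values is not given in the sources used here.

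Transcripts were named by the NCBI gene table (29835), by GENCODE (180) or kept their identifier (396), and values were summed per gene. FPKM values summed to 891329 to 1068933 per mouse. Counts were not used here. Judged by the smallest values, each mouse had roughly 7900000 to 11500000 fragments, which limits the precision of low genes. Pearson's r of log2(FPKM + 1) between mice of a group was 0.978 to 0.988, and it did not exceed 0.988 over all pairs of the 12 mice.

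A gene was tested if 3 or more of the 12 mice had 1 FPKM or more. Tests were run on log2(FPKM + 1) with limma 3.58.1 in R 4.3.3, with a mean-variance trend and Benjamini-Hochberg adjustment over all genes. Fold changes are on that scale, which understates those of low genes. Each mutant group was fitted with its controls, and the difference between the sets over all 12 mice together. In simulated data with independent noise and shifts larger than the fold changes of most members, the fit recovered the direction of the changed genes. How well smaller changes are found was not tested. The members and lists were chosen with earlier results of these data known. Pathway genes past the threshold were named, with *Runx2*, *Mmp3* and *Mmp8*, the 10 genes with the highest r to *Mmp13*, and others as stated. Alternatives were a pseudocount of 0.1 FPKM, no filter, values rescaled to the same sum, the highest transcript in place of the sum, a joint fit of the 12 mice, a block for the replicate number, the libraries with *Xist* under 1 FPKM, and each mouse left out. Promoters are those of RefSeq on GRCm38.p6, found for 7 of 10 members.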

Additional observations from a re-analysis of the deposited data

How the results depend on the processing

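Of the 10 members, 0 passed in P-KO. This count became 1 with values rescaled to the same sum, 3 with all 12 mice in 1 fit and 1 with the replicate block, and it was 0 to 0 without single mice. In R-Het it was 2, and it became 0 with no filter on low values, 1 with the replicate block and 1 with *Xist*-free libraries, and it was 1 to 2 without single mice. Of the 47 further genes, 2 passed in P-KO, against 0 with no filter, 1 with the highest transcript, 1 with all 12 mice, 3 with the replicate block, 0 with *Xist*-free libraries and 0 to 1 without single mice. In R-Het 2 passed, against 0 with no filter, 0 with rescaled values, 0 with the highest transcript, 1 with the replicate block, 0 with *Xist*-free libraries and 0 to 4 without single mice. For P-Ctrl against R-WT and for the difference between the sets, the member count was 0 in each alternative run. The causes were not tested.

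The sign turned for *Mmp23* in P-KO, to 0.32 with *Xist*-free libraries, and without single mice its value was -0.283 to 0.0218. In R-Het the values without single mice spanned 0 for *Mmp14* (-0.0797 to 0.0952), *Timp3* (-0.110 to 0.00908) and *Runx2* (-0.00317 to 0.221). In P-KO, *Runx2* ran from -0.96 to -0.32 over the 13 alternatives.

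Over all genes, 73 were lower and 132 higher in P-KO, against 65 and 41 with rescaled values, 190 and 527 with all 12 mice, 27 and 30 with the highest transcript, 92 and 181 with the replicate block, 0 and 1 with no filter and 0 and 0 with *Xist*-free libraries, where 2153 genes had an unadjusted p under 0.05 in limma. In R-Het 195 were lower and 52 higher, against 163 and 39, 56 and 39, 92 and 19, 69 and 21, 3 and 2, and 28 and 6 in the same order. Without single mice, the calls in both directions together went from 205 to between 0 (without P-KO 1) and 35 in P-KO, and from 247 to between 34 (without R-WT 1) and 169 in R-Het, so the shares of all genes that passed rest on all 6 mice of a set. Same-numbered mice deviated from their group means with r of 0.18, 0.26 and 0.05 in the *Med23* set and 0.00, -0.05 and -0.08 in the *Runx2* set, so the numbers were not taken to pair the mice. *Mmp11*, with 150 fragments in its shallowest library, is the member whose fold changes are least precise by counting.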
